A study of Mus musculus with 12 samples.

Results

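The mRNA levels of 10 genes for glucose uptake and glycolysis were followed in maturing mouse blastocysts with and without inhibition of p38-MAPK. The genes were taken by name from the 34245 genes of the table, and all 10 were found. They were chosen with earlier results of these data known, so their counts beside all genes are descriptive only. They are the glucose transporters Slc2a1 (GLUT1) and Slc2a3 (GLUT3), the hexokinases Hk1 and Hk2, the enzymes Gpi1, Pfkl, Aldoa, Pgk1, and Pkm of the steps that follow, and Ldha, which makes lactate. Embryos came from superovulated F1 (C57Bl6 x CBA/W) females mated with F1 males. They were cultured from the 2-cell stage to E3.5 in KSOM with added amino acids, so every group shares this medium. Pools of 30 blastocysts were then kept for 4, 7, or 10 h with 20 µM of the p38-MAPK inhibitor SB220025 (p38-MAPKi) or with a matching volume of its solvent, DMSO (control). Each of the 6 groups has 2 libraries of poly(A) RNA, which makes 12 libraries. A library is a mixture of the trophectoderm and the inner cell mass of whole embryos, so fewer cells of a type and less RNA per cell cannot be told apart.

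Glycolysis splits glucose into pyruvate and gains ATP and NADH on the way. Glucose enters a cell through transporters of the GLUT family, and hexokinase traps it as glucose-6-phosphate, from which glycogen synthesis, the hexosamine pathway, and the pentose phosphate pathway also start. Pyruvate goes on to mitochondria or is turned into lactate by lactate dehydrogenase. Cleavage-stage embryos of the mouse use mostly pyruvate and lactate, and glucose uptake and glycolysis increase as the blastocyst forms. In the blastocyst GLUT3 lies on the apical side of the trophectoderm, facing the medium, whereas GLUT1 lies mainly on the basolateral side and in the inner cell mass.

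The deposited values are log2 RPKM, the reads of a gene scaled to the length of its transcript and to the depth of the library. Depth was between 11242313 and 24457312 reads, and the members had between 136 and 26244 reads in a library. Replicate 1 of p38-MAPKi at 7 h stood apart. It had the fewest reads, and only 14158 genes had a read in it, against 16500 to 17802 in the other libraries. It correlated with replicate 2 at r = 0.924 over genes, while the remaining pairs lay between 0.969 and 0.981. The main values of the members that rest on it are therefore also given without it. Values of other genes at 7 h are given only with it. The labelled material was checked against its markers. The summed level of 9 trophectoderm markers was 1746 to 2574 RPKM in the control libraries and 1926 to 2479 RPKM with p38-MAPKi, that of 8 epiblast markers was 598 to 733 RPKM and 588 to 737 RPKM, and that of 7 primitive endoderm markers was 142 to 189 RPKM and 116 to 185 RPKM. Foxa2, a marker of mature primitive endoderm, had at most 1 read in a library. For the cells that surround an oocyte and for blood the summed levels of 6 and 5 markers were at most 1.502 RPKM in any library, and no read of Hba-a2, Hbb-bs, Hbb-bt, or Ptprc was found. No spiked-in RNA was added, so each level is a share of its library.

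The members covered a wide range of levels. Aldoa (aldolase, which cleaves fructose-1,6-bisphosphate) was highest, at 268 ± 26.6 RPKM in control blastocysts (mean ± SD over 6 libraries of the 3 time points). Its row spans a pair of annotated genes of that name. It was followed by Pkm (pyruvate kinase) at 93.99 ± 12.01 RPKM, Slc2a3 at 74.5 ± 4.81 RPKM, Slc2a1 at 40.5 ± 3.52 RPKM, Hk2 at 40.2 ± 2.93 RPKM, and Gpi1 (glucose-6-phosphate isomerase) at 35.0 ± 4.62 RPKM. Pgk1 (phosphoglycerate kinase, the first step that yields ATP) had 15.4 ± 2.34 RPKM, Pfkl (the liver type of phosphofructokinase, which catalyses the committed step) 7.28 ± 1.04 RPKM, Ldha 3.47 ± 1.13 RPKM, and Hk1 2.59 ± 0.60 RPKM. In this order the ranges over the 6 control libraries overlapped between the neighbours Pkm and Slc2a3, Slc2a1 and Hk2, Hk2 and Gpi1, and Ldha and Hk1, and did not overlap between the other neighbours. These levels are per length of all annotated exons joined, and they depend on which reads were counted. For Pgk1, 53.9% of the 50-base windows of its transcripts are also found in transcripts of other genes, among them the copy Pgk1-rs7. The share was 25.8% for Pkm, mostly with Gm49759, a gene on the same strand, 15.8% for Gpi1, 9.26% for Ldha, and 5.13% for Aldoa, and it was at most 1.54% for the transporters and the hexokinases. How reads with several positions were counted is not given in the sources used here, so the levels of Pgk1, Pkm, Gpi1, Ldha, and Aldoa are uncertain as compared with those of other genes.

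**Figure D1:**
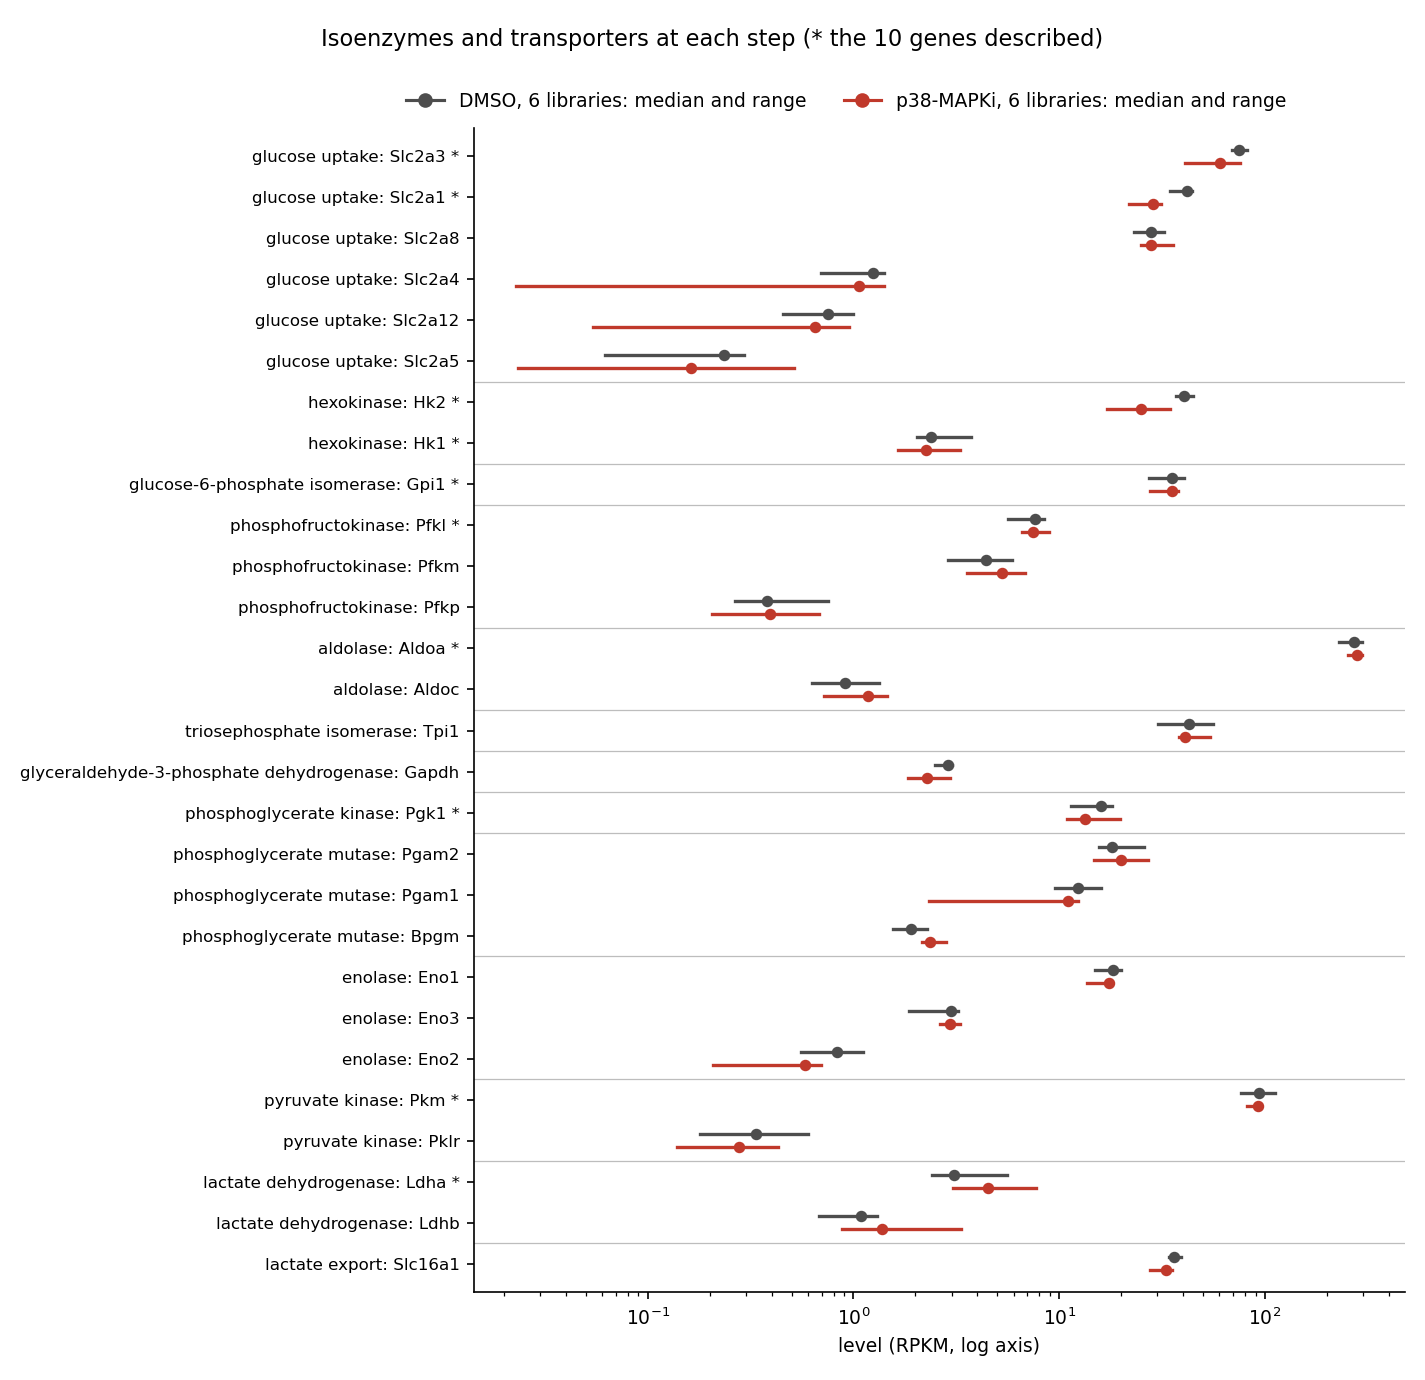
Level of each transporter or isoenzyme with a mean of at least 0.1 RPKM, grouped by step, on a log axis (RPKM). Points are medians and lines are ranges over the 6 DMSO libraries (grey) and the 6 p38-MAPKi libraries (red), and an asterisk marks the 10 genes described. Hk2, Aldoa, Pgk1, and Pkm each hold over 90% of the summed level of their step in control libraries.

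At most steps a member was the main isoform. In control libraries Hk2 made up 93.8% of the summed RPKM of the hexokinases (range 90.9 to 94.8%) and Hk1 6.05%. Aldoa held 99.7% of the aldolases, Pgk1 99.8% of the phosphoglycerate kinases, and Pkm 99.6% of the pyruvate kinases. Phosphofructokinase was shared, with 60.2% Pfkl, 36.3% Pfkm (the muscle type), and 3.55% Pfkp (the platelet type). Lactate dehydrogenase was 76.2% Ldha and 23.8% Ldhb, although both were low. Of the 50-base windows of Ldhb, 21.0% are shared with another gene, so this split is uncertain. Of the 12 transporters, Slc2a3 held 51.3%, Slc2a1 27.9%, and Slc2a8, a largely intracellular transporter, 19.3%, while Slc2a4, the transporter that responds to insulin in muscle and fat, held 0.76%. With p38-MAPKi the shares were 50.1%, 23.5%, and 24.8% for Slc2a3, Slc2a1, and Slc2a8, and for each of these the ranges over libraries overlapped between the conditions. The steps without a member were led by Tpi1 (triosephosphate isomerase) at 42.5 RPKM in control libraries, Pgam2 (phosphoglycerate mutase) at 19.2 RPKM, Eno1 (enolase) at 17.8 RPKM, Slc16a1 (MCT1, which moves lactate across the membrane) at 36.5 RPKM, and Gapdh at 2.83 RPKM. The values of Eno1 and Gapdh are uncertain, since 26.0% and 25.1% of their 50-base windows are shared with other genes. Pgam1 was at 12.7 RPKM with 36.2% of its windows shared, against 0% for Pgam2, so the order of these mutases is uncertain as well.

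Control blastocysts were compared over time to ask how these genes change as the blastocyst matures. All 10 members were tested in every comparison, that is, each had at least 1 RPKM in at least 2 of its libraries, and a gene was called when its limma adjusted p over all genes tested was below 0.05. From 4 to 10 h the log2 difference of each of the 10 members was above 0, with a median of 0.31 against 0.14 for all genes. Of all genes, 24.3% had a negative difference. By limma 0 members were called, against 0.471% of all genes tested. An unadjusted p under 0.05 was reached by 4 members, beside 15.2% of all genes. With limma's voom on whole reads 2 members, Gpi1 and Pkm, were called, among 401 genes. Both 10 h libraries lay above both 4 h libraries for 7 members, and so they did for 42.3% of all genes. Pgk1 was at 11.4 and 14.4 RPKM at 4 h, 16.5 and 15.3 RPKM at 7 h, and 18.0 and 17.1 RPKM at 10 h. The time points did not overlap, with a log2 difference of 0.45 (SE 0.14, limma adjusted p = 0.195) from 4 to 10 h. Ldha had the largest difference among the members, 0.55 (SE 0.28, limma adjusted p = 0.362). Its replicates differed most, with 5.55 and 2.98 RPKM at 10 h, and these overlapped the 2.40 and 3.21 RPKM at 4 h. The log2 differences of Gpi1, Pfkl, Pkm, and Aldoa were between 0.28 and 0.37, and those of Slc2a1, Hk2, Hk1, and Slc2a3 between 0.00 and 0.22. Without replicate 2 of the control at 4 h, Gpi1, Pfkl, Aldoa, Pgk1, and Pkm were called, but the calls over all genes rose as well. In the shorter intervals 0 members were called as well, both from 4 to 7 h (0.492% of all genes called) and from 7 to 10 h (0.0552% of all genes called), where 0 members also had an unadjusted p under 0.05 and 0 were called with voom.

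**Figure D2:**
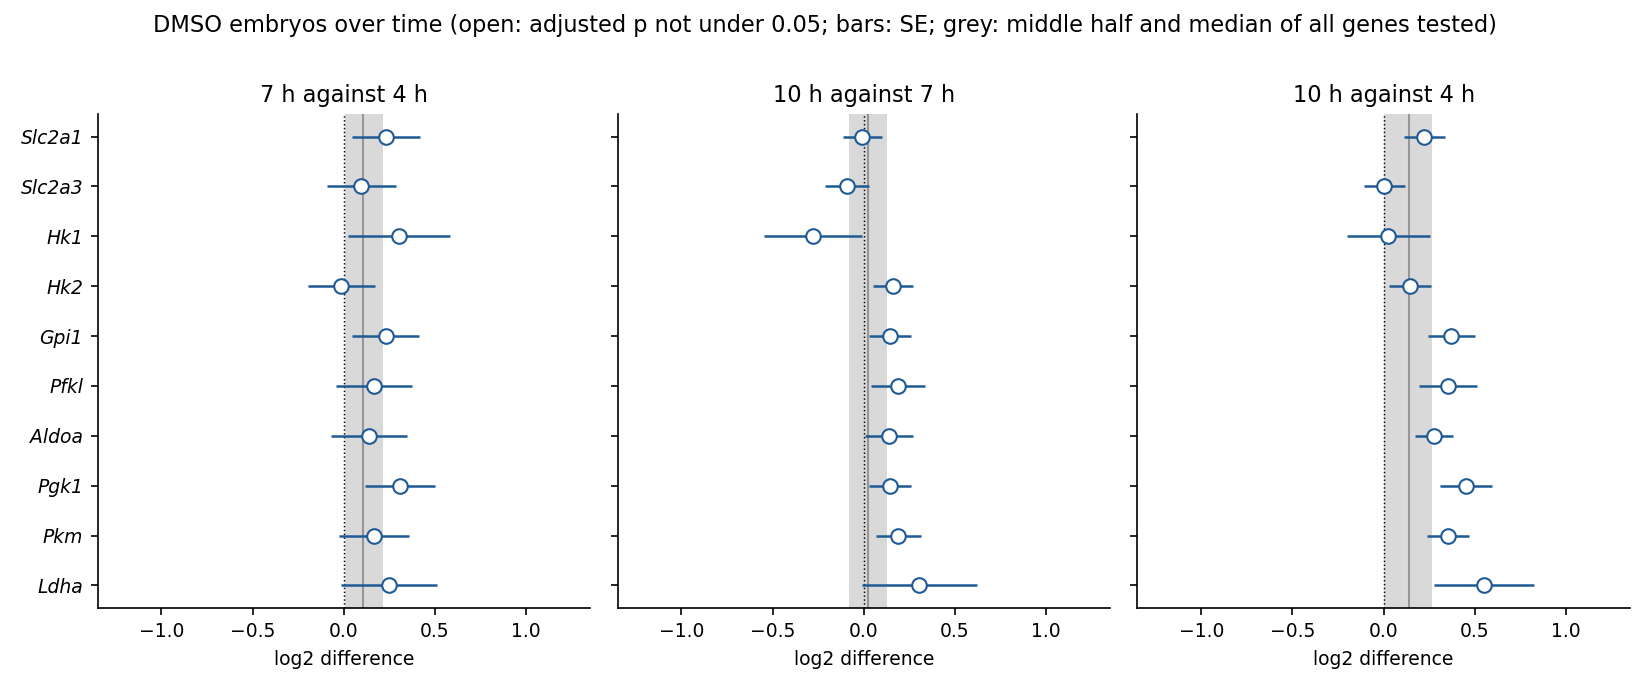
Log2 difference (x axis) of each member between time points of the DMSO libraries, with 2 libraries per time point. Points are limma estimates with their SE, and the grey band and line are the interquartile range and the median of all genes tested. From 4 to 10 h all 10 points lie above 0, between 0.00 and 0.55, and none passed the threshold. Of all genes tested, 24.3% lay below 0 there.

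The effect of p38-MAPK inhibition was examined at each time point and as the part common to the 3 time points. Slc2a1 and Hk2, which act at the entry of glucose, were lower with p38-MAPKi. Over the 12 libraries Slc2a1 fell by 0.54 on the log2 scale (SE 0.10, 1.46-fold lower, limma adjusted p = 0.0189) and Hk2 fell by 0.67 (SE 0.11, 1.59-fold lower, limma adjusted p = 0.0123). These were 2 of 10 members called, both lower, beside 2.67% of all genes tested. As the members were chosen with earlier results of these data known, this count is descriptive only. For Slc2a1 and Hk2 all 6 p38-MAPKi libraries lay below all 6 control libraries, which held for 1.1% of all genes. None of the other 8 members was called. In a single fit of the 12 libraries with a mean for each of the 6 groups, Slc2a3 was called (-0.33, limma adjusted p = 0.0304). The median log2 difference of the 10 members was -0.08, against -0.03 for all genes.

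**Figure D3:**
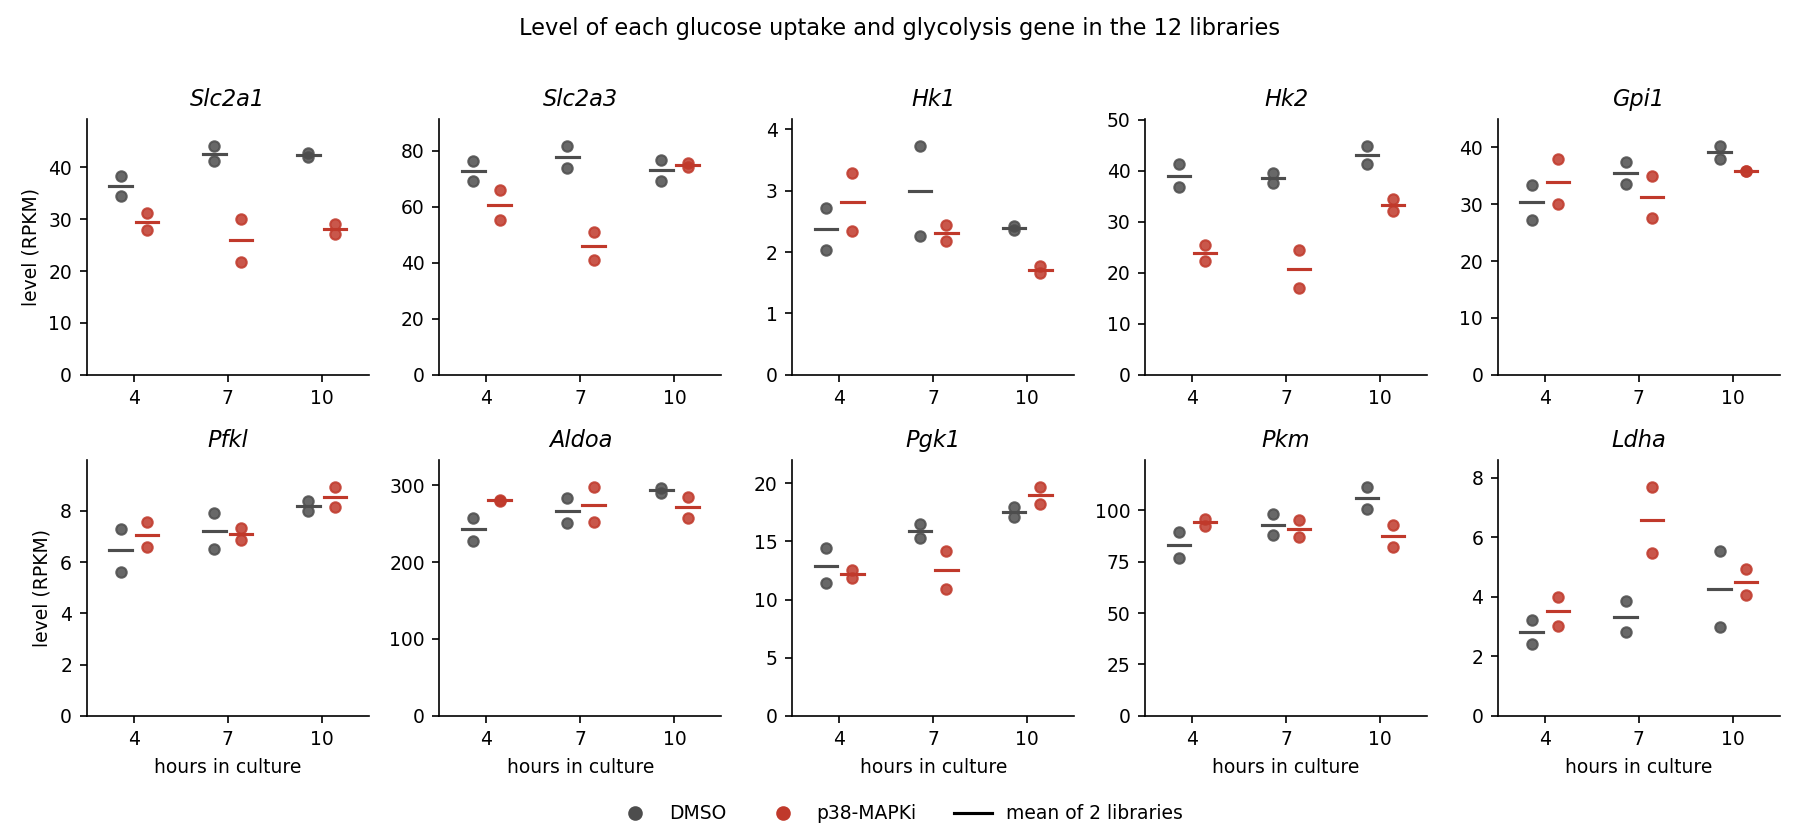
Level (RPKM, y axis from 0) of each member at 4, 7, and 10 h. Each point is 1 library of 30 pooled blastocysts, grey for DMSO and red for p38-MAPKi, and a bar is the mean of 2 libraries. The p38-MAPKi points of Slc2a1 (21.8 to 31.2 RPKM) and Hk2 (17.1 to 34.4 RPKM) all lie below the DMSO points (34.5 to 44.1 and 36.8 to 44.8 RPKM).

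Slc2a1 (ENSMUSG00000028645.11, chromosome 4, 119108711 to 119137983, plus strand, GRCm38) encodes the widespread transporter that supplies basal glucose. At 4 h its level was 34.5 and 38.3 RPKM in control blastocysts and 31.2 and 27.9 RPKM with p38-MAPKi. At 7 h it was 44.1 and 41.2 RPKM in control blastocysts and 21.8 and 30.1 RPKM with p38-MAPKi. At 10 h it was 42.1 and 42.8 RPKM in control blastocysts and 27.2 and 29.1 RPKM with p38-MAPKi. The groups did not overlap at any time point. The control libraries of 7 and 10 h lay above those of 4 h, but neither difference over time was called (0.23, limma adjusted p = 0.999, and 0.22, limma adjusted p = 0.363). At 10 h the difference was called (fell by 0.59 on the log2 scale, SE 0.07, limma adjusted p = 0.0398), the only member called there, beside 0.803% of all genes. Its log2 differences of -0.30 at 4 h (limma adjusted p = 0.685) and -0.74 at 7 h (limma adjusted p = 0.0657) did not pass, and without replicate 1 of p38-MAPKi the latter was -0.50 (limma adjusted p = 0.183). The call at 10 h was lost without the variance trend (adjusted p = 0.149), without the filter on low values (adjusted p = 0.118), and in a single fit of the 12 libraries (adjusted p = 0.482). The call over all times was kept without replicate 1 of p38-MAPKi at 7 h (log2 difference -0.46, limma adjusted p = 0.0164) and lost without replicate 1 of the control at 7 h (-0.51, limma adjusted p = 0.0525).

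Hk2 (ENSMUSG00000000628.10, chromosome 6, 82725025 to 82774454, minus strand, GRCm38) encodes the inducible hexokinase that can bind to mitochondria. Its level at 4 h was 36.8 and 41.3 RPKM in control blastocysts and 25.6 and 22.3 RPKM with p38-MAPKi. At 7 h these were 39.6 and 37.6 RPKM in control blastocysts and 24.5 and 17.1 RPKM with p38-MAPKi. At 10 h they were 41.4 and 44.8 RPKM in control blastocysts and 34.4 and 32.0 RPKM with p38-MAPKi. The groups were apart at each time point, and the p38-MAPKi libraries of 10 h were the highest of the 6. No single time point passed, with log2 differences of -0.71 at 4 h (SE 0.20, limma adjusted p = 0.052), -0.92 at 7 h (SE 0.21, limma adjusted p = 0.0526), and -0.38 at 10 h (SE 0.08, limma adjusted p = 0.0796). At 10 h it was called with voom (adjusted p = 0.0145), among 525 genes, and with the length trend removed (adjusted p = 0.0298), among 311 genes. The main fit called 88 genes at 10 h. Hk2 was called over all times in each alternative tried, including the fit without replicate 1 of p38-MAPKi at 7 h (-0.70, limma adjusted p = 0.0144). Without that library the log2 difference of Hk2 at 7 h was -1.18. Hk1, the constitutive hexokinase, was at 1.65 to 3.72 RPKM in the 12 libraries and had log2 differences of 0.24, -0.33, and -0.48 at 4, 7, and 10 h, none of them called. At 10 h it had 2.43 and 2.36 RPKM in control blastocysts and 1.77 and 1.65 RPKM with p38-MAPKi.

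The sequences upstream of the genes that were lower over all times are given here from the RefSeq promoter table for GRCm38.p6, 5' to 3' on the strand of the gene, with matches of 5 short motifs in capitals. The Slc2a1 stretch (chr4:119108495-119108710, plus strand) ends 34 bases before the RefSeq start, and the Hk2 stretch (chr6:82774455-82774704, minus strand) ends at the base before it.
Slc2a1: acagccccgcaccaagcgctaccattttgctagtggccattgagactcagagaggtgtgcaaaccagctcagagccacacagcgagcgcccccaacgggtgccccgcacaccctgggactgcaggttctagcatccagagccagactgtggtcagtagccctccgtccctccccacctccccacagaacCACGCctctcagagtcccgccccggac
Hk2: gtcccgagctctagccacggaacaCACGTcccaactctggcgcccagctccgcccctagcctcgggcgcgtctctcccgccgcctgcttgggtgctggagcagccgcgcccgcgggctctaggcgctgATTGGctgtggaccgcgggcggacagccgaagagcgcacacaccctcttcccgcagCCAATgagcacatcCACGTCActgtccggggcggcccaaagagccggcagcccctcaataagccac
The motifs were searched on both strands. They were CACGTG (the E box, bound by Myc and ChREBP type factors), ACGTG and GCGTG (the core bound by hypoxia-inducible factors, where ACGTG is also part of the E box), TGACG (part of the site of factors of the CREB and ATF family), and CCAAT. The printed Slc2a1 stretch holds GCGTG once, and ACGTG lies in the bases between its end and the RefSeq start, which are not printed. Likewise the Hk2 stretch holds ACGTG at 2 places, TGACG, and CCAAT in both orientations. In windows of 250 bases before a start, CACGTG was found in 6.02% of 32851 promoters, ACGTG in 16.6%, GCGTG in 28.2%, TGACG in 17.8%, and CCAAT in 33.8%. For 9 of the 10 members the table holds an entry, with 14 starts in all, of which 7 had ACGTG, 4 GCGTG, 3 TGACG, 5 CCAAT, and 1 (of Ldha) CACGTG. These matches describe letters and not binding.

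Slc2a3 (ENSMUSG00000003153.10, chromosome 6, 122727809 to 122801640, minus strand, GRCm38), the high-affinity transporter through which the trophectoderm takes up glucose, was not called at any time point. At 4 h it was at 69.1 and 76.5 RPKM in control blastocysts and 66.0 and 55.4 RPKM with p38-MAPKi. At 7 h it was at 73.9 and 81.6 RPKM in control blastocysts and 40.9 and 51.0 RPKM with p38-MAPKi. At 10 h it was at 69.3 and 76.6 RPKM in control blastocysts and 75.5 and 74.1 RPKM with p38-MAPKi. The groups were apart at 4 and 7 h and overlapped at 10 h. The log2 differences were -0.27 (limma adjusted p = 0.726), -0.77 (limma adjusted p = 0.0551), and 0.04 (limma adjusted p = 0.807). At 7 h it was -0.61 without replicate 1 of p38-MAPKi (limma adjusted p = 0.127). The change of the effect from 7 to 10 h was 0.80 (SE 0.18), the smallest adjusted p of the members in the test of this difference (limma adjusted p = 0.071), beside 0.00877% of all genes called there. With voom on whole reads it was called (0.80, adjusted p = 0.03), and without replicate 1 of p38-MAPKi at 7 h it was not (0.64, limma adjusted p = 0.0738). It was also called without replicate 1 of the control or replicate 2 of p38-MAPKi at 7 h. The transcript of Slc2a3 is long (7.24 kb). Long transcripts were lower in both p38-MAPKi libraries of 7 h than in the mean of the control libraries of 7 h. The correlation of this difference with log2 length across genes was -0.28 and -0.32. Measured likewise, it was -0.008 and -0.32 in replicates 1 and 2 of p38-MAPKi at 4 h, and 0.05 and 0.03 at 10 h. For control replicate 1 against control replicate 2 at 7 h it was -0.29. That control value changes its sign with the replicate taken as reference, while both p38-MAPKi libraries of 7 h went the same way. The part of the length trend in the difference of Slc2a3 was not tested. With the length trend of each library removed, the difference of Slc2a3 at 7 h was -0.52 (limma adjusted p = 0.0977), against -0.77 before. That of Hk2 was then -0.74 (limma adjusted p = 0.0898), against -0.92, and that of Hk1 -0.03, against -0.33. That of Slc2a1 was -0.76 (limma adjusted p = 0.0718), against -0.74.

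No call was made for the enzymes between hexokinase and pyruvate. For Gpi1, Pfkl, Aldoa, Pgk1, and Pkm the log2 differences over all times were between -0.10 and 0.06 with SEs of 0.09 to 0.10, and 0 of the 5 were called by limma, with 0 also at an unadjusted p under 0.05 and 0 with voom. Gpi1 was at 27.3 to 40.2 RPKM in control libraries and 27.6 to 37.9 RPKM with p38-MAPKi, and Pfkl was at 5.62 to 8.39 RPKM and 6.57 to 8.92 RPKM. Aldoa was at 228 to 297 RPKM in control libraries and 252 to 298 RPKM with p38-MAPKi. Pkm, whose transcript gives both the M1 and the M2 form by splicing, which this table does not separate, was at 76.6 to 111 RPKM and 82.1 to 95.9 RPKM. The ranges over the 6 libraries of the conditions overlapped for each of these genes. At 10 h Pkm was at 111 and 101 RPKM in control blastocysts and at 82.1 and 92.8 RPKM with p38-MAPKi, without overlap, and its log2 difference of -0.28 (SE 0.08, limma adjusted p = 0.149) did not pass. Pgk1, on the X chromosome, had 11.9 and 12.6 RPKM at 4 h, 14.2 and 10.9 RPKM at 7 h, and 19.7 and 18.3 RPKM at 10 h with p38-MAPKi. Both p38-MAPKi libraries lay below the control at 7 h (-0.35, limma adjusted p = 0.277) and above it at 10 h (0.11, limma adjusted p = 0.471) without a call in either case. Without replicate 1 of p38-MAPKi the value at 7 h was -0.54 (limma adjusted p = 0.154).

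Ldha was the member with the largest positive difference. At 7 h it was at 3.86 and 2.81 RPKM in control blastocysts and at 7.69 and 5.46 RPKM with p38-MAPKi. At 4 h it was at 2.40 and 3.21 RPKM in control blastocysts and at 3.98 and 3.03 RPKM with p38-MAPKi. At 10 h it was at 5.55 and 2.98 RPKM in control blastocysts and at 4.93 and 4.05 RPKM with p38-MAPKi. The groups were apart at 7 h and overlapped at 4 and 10 h. The log2 difference at 7 h was 0.98 (SE 0.28, limma adjusted p = 0.0719), and the highest level was that of replicate 1 of p38-MAPKi, without which the difference was 0.73 (limma adjusted p = 0.148). At 7 h 0 of the 10 members were called by limma, beside 2.13% of all genes. An unadjusted p under 0.05 was reached by 4, Slc2a1, Slc2a3, Hk2, and Ldha, beside 28.4% of all genes. With voom these 4 were called, among 1731 genes. At 4 h 0 of 10 were called by limma, beside 0.909% of all genes. An unadjusted p under 0.05 was reached by 1, Hk2, beside 9.42% of all genes, and 0 were called with voom. Leaving out 1 library changed the limma counts. Without replicate 2 of p38-MAPKi at 7 h Slc2a1, Slc2a3, Hk2, and Ldha were called. Without replicate 1 of p38-MAPKi at 4 h Hk2 was called. In both cases the calls over all genes rose as well. Both p38-MAPKi libraries lay below both control libraries for 3 members at 4 h, 4 at 7 h, and 6 at 10 h, beside 13.7%, 38.7%, and 29.6% of all genes. The comparisons with p38-MAPKi and those over time share the control libraries.

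**Figure D4:**
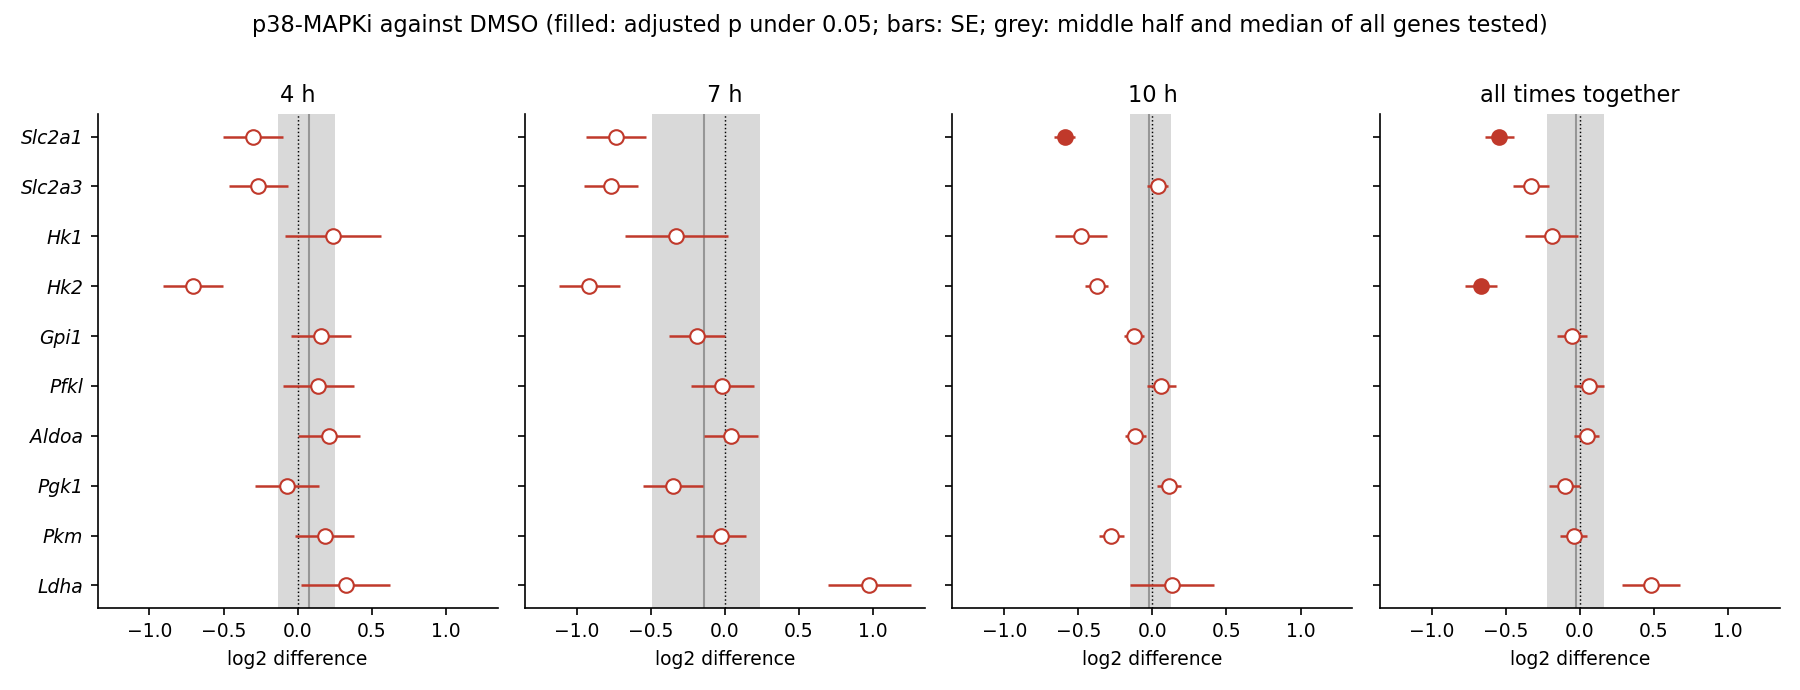
Log2 difference (x axis) between p38-MAPKi and DMSO for each member at 4, 7, and 10 h (2 libraries per group) and over the 12 libraries. Points are limma estimates with their SE, filled where the adjusted p was under 0.05 (Slc2a1 at 10 h and over all times, Hk2 over all times), and the grey band and line are the interquartile range and the median of all genes tested. Slc2a1 and Hk2 lie below 0 in each panel, and Ldha is the highest in each panel.

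The effects of p38-MAPKi were also compared between time points in a single model with an interaction. From 4 to 7 h 0 members were called (0 at an unadjusted p under 0.05, 0 with voom), beside 0.00884% of all genes. For 9 of 10 members the difference was negative, as it was for 70.3% of all genes, with a median of -0.25 against -0.22 for all genes. From 7 to 10 h 0 members were called by limma, beside 0.00877% of all genes. An unadjusted p under 0.05 was reached by 2 members, Slc2a3 and Hk2, beside 26.3% of all genes. The difference of Hk2 was 0.54 (SE 0.23, limma adjusted p = 0.185), that of Ldha -0.84 (SE 0.45, limma adjusted p = 0.268), and that of Slc2a1 0.14 (SE 0.21, limma adjusted p = 0.694). Without replicate 1 of p38-MAPKi at 7 h these were 0.80, -0.59, and -0.09, so that of Slc2a1 changed sign.

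Other genes of glucose metabolism were taken from 6 lists with 80 genes, namely other glycolysis enzymes, other sugar and lactate transporters, enzymes of fructose 2,6-bisphosphate and gluconeogenesis, pyruvate dehydrogenase, the pentose phosphate pathway, and glycogen and hexosamine synthesis. Over all times 54 of these were tested and 0 were called by limma (11 at an unadjusted p under 0.05, 0 with voom). The same count of 0 was found in the other 8 comparisons, with 2 to 11 genes at an unadjusted p under 0.05 and 0 to 6 called with voom, the 6 at 7 h. The median log2 difference over all times was 0.12 for 10 tested glycolysis enzymes that are no members and 0.13 for 8 enzymes of the pentose phosphate pathway, and it was -0.10 for 14 genes of glycogen and hexosamine synthesis. Among the further isoenzymes, Pfkm was at 2.89 to 6.83 RPKM and Ldhb at 0.68 to 3.32 RPKM in the 12 libraries, with log2 differences of 0.21 and 0.50 over all times. Slc2a8 differed by 0.05, Tpi1 by 0.08, Pgam2 by 0.07, Eno1 by -0.10, Gapdh by -0.29, and Slc16a1 by -0.19, none of them called.

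Of 14 regulators of glycolysis, 3 were called over all times, 2 higher and 1 lower, beside 2.67% of all genes. At 4, 7, and 10 h 3, 2, and 1 of them were called, beside 0.909%, 2.13%, and 0.803% of all genes. The list was chosen with earlier results of these data known, so its counts are descriptive only. Myc, a transcription factor that is known to activate genes of glycolysis, fell by 1.10 on the log2 scale (limma adjusted p = 0.0091), from 6.16 ± 1.10 to 3.02 ± 1.30 RPKM (SD, n = 6), and was also called at 4 h (-1.27, limma adjusted p = 0.0011). Txnip, which promotes the removal of GLUT1 from the cell surface and whose transcription follows glucose, rose by 0.91 (limma adjusted p = 0.0119), and was higher at 4, 7, and 10 h (0.89, 0.97, and 0.88, limma adjusted p = 0.0106, 0.0461, and 0.0403). Mlxipl (ChREBP, a sensor of glucose) rose by 1.349 (limma adjusted p = 0.00645) from a low level, 1.25 to 3.27 RPKM, and at 7 h (1.81, limma adjusted p = 0.0456). Arrdc4, a relative of Txnip, was called at 4 h (1.28, limma adjusted p = 0.0188). The values of 4 h rest on the control libraries, since without replicate 1 of the control Txnip differed by 0.33 and Arrdc4 by 0.45, and neither these genes nor Myc (-1.55, limma adjusted p = 0.0663) were called. Hif1a, the hypoxia-inducible factor that activates Slc2a1, Hk2, and Ldha in other cells, differed by -0.12 over all times (limma adjusted p = 0.393). Of the lineage markers, Cdx2 (-0.38, limma adjusted p = 0.0336) and Gata3 (-0.51, limma adjusted p = 0.0169), both of the trophectoderm, were lower over all times. These were 2 of 8 tested, beside 2.67% of all genes. Of these 8 markers 5 had a positive and 3 a negative difference, with a median of 0.01. Dab2 of the primitive endoderm was lower at 7 h (-1.003, limma adjusted p = 0.0461), 1 of 5 tested, beside 2.13% of all genes. All 5 had a negative difference at 7 h, with a median of -0.47 against -0.14 for all genes. Over all times all 5 were negative as well, with a median of -0.31 against -0.03 and 0 called. Of 8 epiblast markers 7 were negative over all times, with a median of -0.21 and 0 called. Whether a shift in cell types has a part in the levels of Slc2a1 and Hk2 was not tested.

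The members did not move as a single group across the 12 libraries. Pearson correlations of their log2 values ranged from -0.62 (Slc2a3 with Ldha) to 0.86 (Aldoa with Pkm). Slc2a1, Slc2a3, and Hk2 correlated with each other at 0.71 to 0.78, and Gpi1, Pfkl, and Aldoa at 0.70 to 0.82. Among 9387 genes with at least 1 RPKM in every library, the gene most like Slc2a1 was Fxr1 (r = 0.95), that most like Hk2 was Hs3st3b1 (r = 0.97), and that most like Slc2a3 was Chm (r = 0.99). For Hk1 it was P4ha1 (0.91), for Gpi1 Rabgef1 (0.94), for Pfkl Mras (0.94), for Aldoa Pradc1 (0.94), for Pgk1 Rap2c (0.95), for Pkm Grb2 (0.95), and for Ldha Dnajb12 (0.89). These are descriptions over libraries that also share depth and trends with transcript length.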

How the data were processed

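The data are mRNA-Seq of 12 libraries in 6 groups with 2 libraries each. Per the study's methods, the authors trimmed the reads with Trim Galore 0.4.1, mapped them to GRCm38 with HISAT2 2.0.5, and used SeqMonk. Per the file header, the deposited values are log2 RPKM, with 1 column per library. Where no read was counted, the table gives a gene 0.9 of a read. The strand setting of the count, the merging of isoforms, and the handling of reads with several positions are not given in the sources used here. Library depths and whole reads (tolerance 0.05 of a read) were recovered for 34243 of 34245 genes from these values, with GENCODE M21 lengths for 29744 genes and, for 4499 genes, Aldoa among them, a length found as the one that made the reads whole. They served to describe depth and for voom.

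Groups were taken from the sample labels. The log2 values as deposited were tested with limma 3.58.1 (lmFit, eBayes with the trend) in R 4.3.3, over genes that reached 1 RPKM in 2 or more libraries of a comparison, with Benjamini-Hochberg adjustment over all genes tested and a threshold of 0.05. The study calls the replicates biological duplicates. Nothing in the labels says that they came from separate cultures, so each p-value measures the spread between these pools. In p38-MAPKi against control at 4 h and in control at 7 h against 4 h, limma gave each gene the variance of the trend, so the scatter of its own replicates had no part in its p-value. The additive fit over all times, also of the 12 libraries, held the time point as a factor. Interactions compared effects between neighbouring time points. The alternative called a single fit of the 12 libraries instead gave each of the 6 groups its own mean. The alternatives were no variance trend, median centring, no filter, log2(RPKM + 1), a single fit of the 12 libraries, blocking on the replicate number, removal of each library's loess trend on length (span 0.5), the block and this removal together, voom on whole reads, and leaving out each library. Python 3.11.15, numpy 2.4.6, pandas 2.3.3, and matplotlib 3.10.9 were used for summaries and plots.

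The 13 gene lists (139 genes), of which the 10 members are one, were chosen with earlier results of these data known. The text names the members, each gene of the other lists that was called, the highest isoenzyme of each step and further isoenzymes of the members' steps, Txnip, Hif1a, and Myc, and for each member the gene with the highest correlation. Some isoenzymes are not reported here. In GENCODE M21 some exons of Slc2a1, Hk1, Gpi1, and Aldoa lie opposite to exons of Gm12868, Hk1os, Gm26762, and Fam57b.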

Additional observations from a re-analysis of the deposited data

Results flagged for a closer look

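The differences of Aldoa and Pkm had opposite signs at 4 h and 10 h. With p38-MAPKi, both libraries of Aldoa were above both control libraries at 4 h (log2 difference 0.21) and below them at 10 h (-0.11). At 10 h 29.6% of all genes lay below in this way, and the share above at 4 h was not counted. The log2 differences of Pkm were 0.18 at 4 h and -0.28 at 10 h. None of these 4 differences passed the limma test at its time point, and the difference between 4 h and 10 h was not tested.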

How the results depend on the processing

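Hk2 kept its call over all times in 22 of 22 settings (log2 difference -0.72 to -0.57) and Slc2a1 in 21 of 22 (-0.59 to -0.46). Calls at single time points, with 2 libraries a group, changed with several of the settings. No called member changed sign. Between groups, the deviations of same-numbered libraries from the group means correlated at -0.163 to 0.139. Between p38-MAPKi and control of the same time point they correlated at -0.01, 0.09, and 0.14 at 4, 7, and 10 h. The labels do not say whether the numbers pair the samples, and these values do not settle it. Results with the block are given only here. The causes of the shifts below were not tested. Counts are all genes called by limma, then members where their number changed, and beside 0 the genes at an unadjusted p under 0.05.

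For p38-MAPKi at 4 h (98 genes, 0 members), 11 genes were called without the variance trend, 0 with median centring (1070 unadjusted), 0 without the filter (1226), 0 in the single fit (1211), 52 with the replicate block and length correction, and 33 with voom. Hk2 was the 1 member called with log2(RPKM + 1), with the replicate block, and with the length correction. At 7 h (233 genes, 0 members), 0 were called without the trend (2629 unadjusted), 0 with centring (3053), and 0 without the filter (3632), 22 with the length correction, and 509 with 2 members (Hk2, Slc2a3) with log2(RPKM + 1). The single fit gave 2586, the replicate block 2023, the block with length correction 1875, and voom 1731, each with 4 members. At 10 h (88 genes, 1 member), 9 genes and 0 members were called without the trend, 0 and 0 without the filter (2836 unadjusted), 0 and 0 in the single fit (611), 410 and 2 with the replicate block, 311 and 2 with the length correction, 1502 and 3 with both, and 525 and 2 with voom, the added members being Hk2 and, with both, Pkm (adjusted p = 0.00267). Over all times (310 genes), 121 were called without the trend, 584 with centring, 86 without the filter, 1175 with 3 members (also Slc2a3) in the single fit, and 189 with the replicate block.

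For the control from 4 to 7 h (53 genes), 5 were called without the trend, 0 with centring (320 unadjusted), 0 without the filter (858), 0 in the single fit (312), 0 with the replicate block (426), 32 with block and length correction, and 7 with voom. From 7 to 10 h (6 genes) the counts were 14 without the trend, 3 with centring, 0 without the filter (1021 unadjusted), 3 with log2(RPKM + 1), 0 in the single fit (215), 28 with the replicate block, and 158 with block and length correction. From 4 to 10 h (51 genes, 0 members) they were 26 without the trend, 2 without the filter, 0 in the single fit (792 unadjusted), 536 with 1 member (Pgk1) with the replicate block, 255 with the length correction, 463 with both, and 401 with 2 members with voom. For the change of the effect from 4 to 7 h (1 gene), 0 were called without the trend (584 unadjusted), with centring (602), without the filter (1310), in the single fit (1408), with the replicate block (704), and with voom (904), and 2 with block and length correction. From 7 to 10 h (1 gene), 0 were called with centring (2907) and without the filter (3728), and 896 with 1 member (Slc2a3) with voom.

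Leaving out each library in turn gave 9 to 424 genes and 0 to 1 members at 4 h (9 without control replicate 1, 424 without p38-MAPKi replicate 1), 0 to 2919 and 0 to 4 at 7 h (0 without control replicate 2, 2919 without p38-MAPKi replicate 2), 78 to 140 and 1 to 1 at 10 h, and 64 to 589 and 1 to 2 over all times (64 without control replicate 1 of 7 h, 589 without p38-MAPKi replicate 1 of 4 h). In the control the ranges were 10 to 58 genes from 4 to 7 h, 3 to 221 from 7 to 10 h (0 members in both, 221 without replicate 1 of 7 h), and 46 to 1228 with 0 to 5 members from 4 to 10 h (1228 without replicate 2 of 4 h). For the changes of the effect they were 0 to 293 with 0 members and 0 to 2905 with 0 to 1 members, both highest without p38-MAPKi replicate 2 of 7 h. With a library left out, the lone sample of its group is assumed to vary like the other groups.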
